A study of Mus musculus with 18 samples.

Results

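Solute carriers are membrane proteins that move amino acids, sugars, ions, metals, nucleosides, lipids and cofactors across the plasma membrane and the membranes of endosomes, lysosomes, the Golgi apparatus and mitochondria. The genes described here are those whose symbol begins with Slc and a family number, apart from pseudogenes and 5 genes left out by name (Slc2a1, Slc2a6, Slc11a1, Slc27a3 and Slc40a1). A gene was a member when its summed estimated counts reached a mean of 5 CPM (read counts scaled to a common library total) in 1 or more of 6 groups. Members were thus chosen by their measured level in these libraries. This gave 170 members of 327 such genes, out of 24614 gene sums in all. At the edge of the threshold, the highest group means were 5.15 CPM for Slc26a11, 5.39 for Slc52a3 and 5.84 for Slc5a3 inside it, and 4.94 for Slc39a8, 4.87 for Slc9a2 and 4.84 for Slc15a2 outside it. Of the members, 135 reached the threshold in all 6 groups and 2 in 1 group only, so that a low level in the other groups is in part built into the choice. Slc6a20a, Slc5a3 and Slc5a6 reached it only in the KO CD8- groups, and Slc52a3 only in KO CD8+ cells. Slc8a2, Slc44a5, Slc26a10 and Slc35d1 reached it only in the WT CD8- groups. Slc26a11 did so only in WT CD4-CD8- cells, and Slc6a13 only in WT groups. The direction of the KO difference of these genes was thus in part fixed by the choice. Slc9a3r1 and Slc9a3r2, scaffold proteins that bind sodium/proton exchangers, and Slc7a6os and Slc4a1ap carry the symbol pattern without being carriers. Substrate classes below follow the family number alone, so these genes are counted in the classes of their families. The rule is by symbol and level, not by response to the knockout.

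The libraries came from conventional dendritic cells (cDC) of the spleens of C57BL/6 mice, antigen-presenting cells that were sorted as living CD11c+MHCII+ cells. The sort gave 3 populations, CD8+ cells (labelled cDC1), CD4+ cells (labelled cDC2) and cells with neither marker (CD4-CD8-, labelled cDC2). Each population was taken from wild type (WT) mice and from mice labelled ADAM10 KO, with 3 libraries in each of the 6 groups. ADAM10 is a membrane protease that cuts the ectodomains of surface proteins, Notch receptors among them, and Notch signalling is known to be needed by splenic CD4+ cDC2. The labels do not give the cell type or promoter of the deletion, the age or the sex of the mice, and they do not say whether libraries came from separate animals. The p-values therefore measure the spread between these libraries.

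Each library held between 12358884 and 19557469 estimated counts. Adam10 itself was measured at 80.5 to 130 normalised CPM in WT CD4+ libraries and 41.6 to 45.9 in KO CD4+ libraries. The ranges were 88.3 to 138 and 41.7 to 47.4 in CD4-CD8- cells, and 57 to 99 and 28.7 to 36.4 in CD8+ cells, so that no KO library overlapped a WT library. In each population the highest WT value came from the library numbered 3. The sort was visible in the markers: the summed cDC1 list (Xcr1, Clec9a, Irf8 and 5 others) stood at 5476 to 6510 CPM in WT CD8+ libraries and at 271 to 302 in WT CD4+ libraries, while the cDC2 list (Sirpa, Irf4, Cd4 and 5 others) stood at 137 to 199 and 2361 to 2379. Other cell types left traces that differed by group. Markers of T cells (9 genes) summed to 106 to 235 CPM in WT CD4-CD8- libraries and 9.67 to 34.7 in KO ones, and those of NK cells (8 genes) to 388 to 797 and 135 to 199. In CD8+ cells the cDC2 list fell from 137 to 199 CPM in WT to 30.3 to 48.2 in KO libraries. That list also fell within the cDC2 populations. The KO libraries held 1751 to 1932 CPM in CD4+ cells and 1050 to 1246 in CD4-CD8- cells, where WT held 1336 to 1557. In CD4+ cells Esam went from 77.9 to 2.26 CPM and Dtx1 from 351 to 4.2, while Itgam rose from 141 to 261.5. In bulk libraries fewer cells of a kind and less RNA per cell cannot be told apart.

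All genes that passed a count filter (13381, with all 170 members among them) were tested with edgeR's quasi-likelihood test, and a gene is called when its Benjamini-Hochberg adjusted p over all these genes is under 0.05. In CD4+ cells 63 members were called higher and 31 lower in KO, which is 55.3% of the members beside 35.1% of all genes tested (18.5% higher, 16.6% lower). In CD4-CD8- cells 54 were called higher and 23 lower, 45.3% beside 25.9% of all genes (14.6% higher, 11.3% lower). In CD8+ cells 10 were called higher and 30 lower, 23.5% beside 15.7% of all genes (7.01% higher, 8.68% lower). At 2-fold or more, 20 members were called higher and 8 lower in CD4+ cells (7.05% and 4.57% of all genes), 4 and 9 in CD4-CD8- cells (3.15% and 4.32%), with 3 and 5 in CD8+ cells (1.38% and 4.29%). The median log2 difference of the members was 0.10, 0.16 and -0.06 in the same order, and that of all genes 0.02, 0.02 and 0.00. Members were chosen to be expressed, which the other genes were not to the same degree, so these shares describe the members and do not test them against other genes.

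The split between rises and falls depended on the scale. On log2(TPM + 1), where TPM is transcript abundance scaled for length and library, 27 members were called higher and 26 lower in CD4+ cells, 11 and 27 in CD4-CD8- cells, with 3 and 32 in CD8+ cells. On that scale the median of all genes itself was shifted against the count fit by -0.104, -0.203 and -0.128 (log2) in the 3 populations, and changes below are relative to the count fit. Many calls were lost on the TPM scale or without single libraries; the losses given beside the values are not complete.

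**Figure D1:**
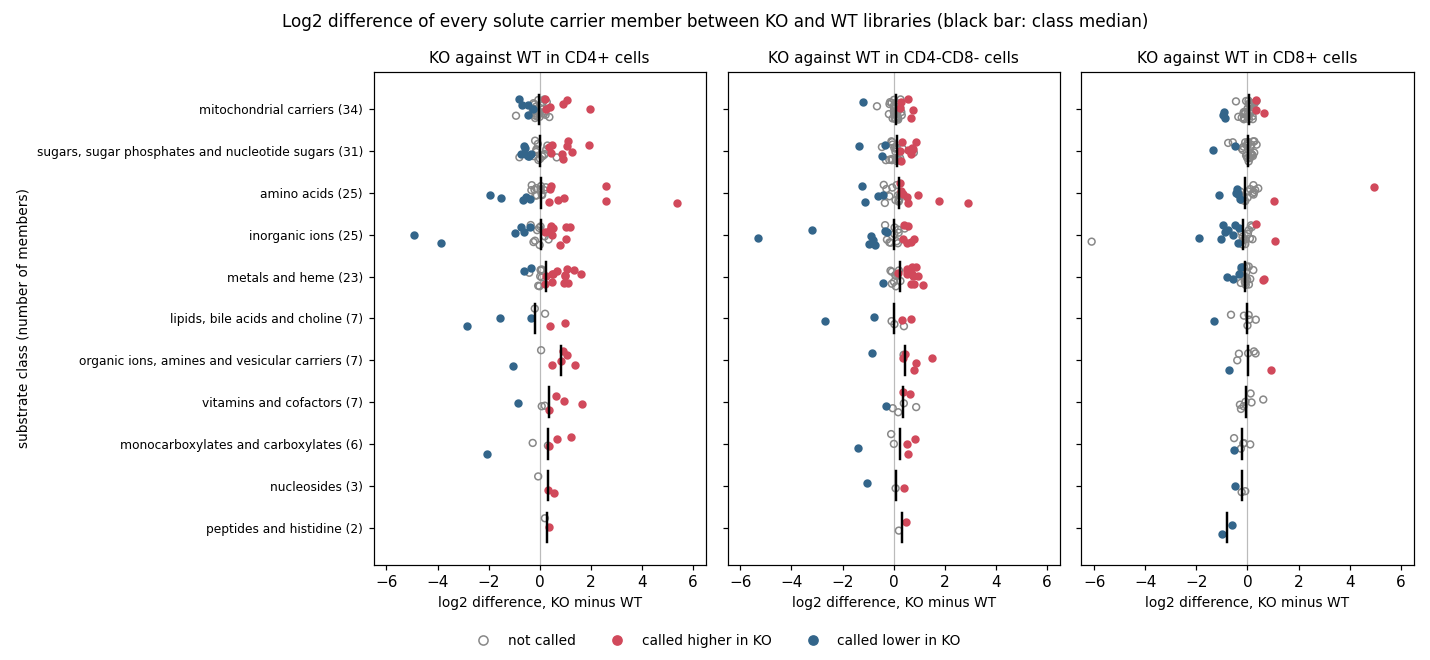
The log2 difference between KO and WT libraries (x axis, normalised counts) of all 170 members in CD4+, CD4-CD8- and CD8+ cells, by substrate class (y axis, number of members in brackets). Filled points passed an adjusted p of 0.05, open points did not, and black bars are class medians; points spread to the right in the first 2 panels, with 63 and 54 members called higher against 10 in CD8+ cells. A fitted value that rests on a group with no counts, such as that of Slc8a2 in CD8+ cells, is not a measure of size.

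The calls in the 2 CD8- populations overlapped. Of the members called higher in KO CD4+ cells, 46 of 63 were also called higher in KO CD4-CD8- cells (46 of 54 there), and of those called lower, 17 of 31 were also called lower (17 of 23). CD8+ cells differed. The difference between the KO effect in CD4+ and in CD8+ cells passed the test for 57 members on the higher side and 17 on the lower side (12.6% and 9.54% of all genes), and between CD4-CD8- and CD8+ cells for 41 and 9 (8.24% and 4.92%). Between CD4+ and CD4-CD8- cells it passed for 5 and 5 (2.48% and 1.28%). Members called lower in all 3 populations were Slc12a2, Slc25a53, Slc26a10, Slc39a6, Slc44a2 and Slc9a3r1. The calls of Slc25a53 were lost on the TPM scale in each population, and those of Slc26a10 in CD4+ and CD8+ cells and of Slc9a3r1 in CD8+ cells without single libraries. Slc22a18, Slc25a24, Slc31a2 and Slc41a3 were among those called higher in all 3. A further 8 were called higher in both CD8- populations and lower in CD8+ cells: Slc12a4, Slc15a3, Slc17a5, Slc26a2, Slc29a3, Slc36a1, Slc39a1 and Slc49a4. Each of these 8 lost at least 1 of its 3 calls under some alternative. In none of the 3 populations were 54 members called. The same overlaps were not counted over all genes, so these numbers describe the members and do not set them apart from other genes.

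The 2 most abundant members per transcript length were mitochondrial. Counting only transcripts of 300 bases or more, the mean over all 18 libraries was 294 TPM for Slc25a5 and 57.4 TPM for Slc25a4, which exchange ADP for ATP across the inner mitochondrial membrane, and 238 TPM for Slc25a3, which carries phosphate. Their reads can also match processed copies of the genes, so these levels are uncertain. The lysosomal membrane protein Slc46a3 followed with 144 TPM, then the Golgi protein Slc35c2 with 118 and Slc3a2, the heavy chain shared by several amino acid exchangers, with 112. The oxoglutarate carrier Slc25a11 had 98.9 TPM, the nucleotide-sugar carrier family member Slc35a4 86.8, the glutamine carrier Slc1a5 55.2 and the mitochondrial glutathione carrier Slc25a39 47.9. With all transcripts counted, Slc15a4 came first with 513 TPM and Slc3a2 second with 360, but 90.7% and 68.7% of these values came from annotated transcripts under 300 bases. The same held for Slc25a12 (66.4 TPM in all, 15.1 without short transcripts) and Slc25a22 (61.9 and 7.56), mitochondrial carriers of aspartate and glutamate. Slc25a5 stood at 567 ± 17.7 normalised CPM in WT CD4+ cells and 546 ± 52.2 in KO (mean ± SD, n = 3), and was not called in any population.

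The steepest falls in KO CD8- cells were in carriers of ions and choline. Slc8a2, a sodium/calcium exchanger of the plasma membrane known mainly from brain (chr7:16129826-16161063, plus strand, GRCm38), stood at 70.7, 80.2 and 59.5 normalised CPM in the WT CD4+ libraries and 2.76, 3.19 and 0.717 in the KO CD4+ libraries. In CD4-CD8- cells it stood at 32.3, 49.5 and 37.1 in WT and 2.31, 0.0767 and 0.307 in KO. All WT libraries were more than 10 times the highest KO library, and the log2 differences were -4.93, SE 0.49, adjusted p = 1.81e-06 in CD4+ and -5.31, SE 0.54, adjusted p = 7.22e-06 in CD4-CD8- cells. In CD8+ cells the gene was close to absent, with 10, 6 and 7 estimated counts in WT and none in KO libraries, and was not called (adjusted p = 0.0905).

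Slc12a2 encodes NKCC1, the cotransporter that brings sodium, potassium and chloride into cells. In WT CD4+ libraries it stood at 146, 164 and 246 CPM and in KO ones at 9.73, 15.7 and 12.4. CD4-CD8- cells gave 81.4, 107 and 153 in WT and 9.9, 13.1 and 14.3 in KO libraries. WT CD8+ cells began lower, at 24.3, 21.5 and 31.5, and KO CD8+ libraries held 13.5, 12.1 and 12.5. The groups did not overlap in any population, and all 9 KO libraries lay between 9.73 and 15.7 CPM whatever the population. The log2 differences were -3.88, SE 0.26, adjusted p = 8.46e-09 in CD4+, -3.20, SE 0.26, adjusted p = 2.26e-07 in CD4-CD8- and -1.02, SE 0.26, adjusted p = 0.0114 in CD8+ cells, and the effect in CD4+ cells differed from that in CD8+ cells by -2.86, SE 0.36, adjusted p = 2.29e-05. The call in CD8+ cells was lost on the TPM scale and without WT CD8+ library 3. In each population the WT library numbered 3 held the highest Slc12a2 value, as it did for Adam10.

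Slc44a5 and Slc44a2 are choline transporter-like proteins that fell in these cells. Slc44a5 stood at 16.6, 15.4 and 14.1 CPM in WT and 3.7, 1.48 and 1.15 in KO CD4+ libraries, and at 4.77, 5.92 and 5.24 and 1.6, 0.23 and 0.536 in CD4-CD8- libraries. It was called lower in both (-2.84, SE 0.49, adjusted p = 0.00024, and -2.67, SE 0.55, adjusted p = 0.00173), and CD8+ libraries held at most 5 counts of it. Slc44a2 was abundant in all 3 populations, with 399 ± 16.9, 344 ± 10.1 and 209.7 ± 31.6 CPM in WT CD4+, CD4-CD8- and CD8+ cells (mean ± SD, n = 3). The KO means were 135 ± 4.7, 200 ± 13.1 and 84 ± 9.47. It was called lower in each, by -1.56, SE 0.10, adjusted p = 6.62e-09 in CD4+ cells, -0.78 in CD4-CD8- cells and -1.32 in CD8+ cells. The effects in CD4+ and CD4-CD8- cells differed by -0.78, SE 0.14, adjusted p = 0.00431, which was lost on the TPM scale. Slc44a1, of the same family, was called in no population. Of all 7 members that carry lipids, bile acids or choline, 2 were called higher and 3 lower in CD4+ cells, 2 and 2 in CD4-CD8- cells, with 0 and 1 in CD8+ cells (71.4%, 57.1% and 14.3% called, beside 35.1%, 25.9% and 15.7% of all genes).

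Slc6a12 and Slc6a13 encode the betaine/GABA transporter BGT1 and the GABA transporter GAT2, close relatives that take up osmolytes and GABA with sodium and chloride. They lie next to each other on the plus strand of chromosome 6, Slc6a13 at chr6:121300227-121337733 and Slc6a12 at chr6:121343076-121365775 (GRCm38), with 5342 bases between them. Slc6a12 stood at 23.1, 25.6 and 24 CPM in WT and 8.62, 7.91 and 8.6 in KO CD4+ libraries. Slc6a13 stood at 11.1, 14.3 and 13.3 and 3.76, 2.73 and 3.44. Both genes were thus lower in every KO library than in every WT library of these cells, and in CD4-CD8- cells likewise, where the means were 12 ± 2.19 and 4.98 ± 1.13 for Slc6a12 and 7.45 ± 2.27 and 3.4 ± 0.987 for Slc6a13. The log2 differences in CD4+ cells were -1.53, SE 0.23, adjusted p = 5.52e-05 for Slc6a12 and -1.96, SE 0.23, adjusted p = 4.34e-06 for Slc6a13. In CD8+ cells neither was called (0.30 and -0.27). The difference between the effects in CD4+ and CD8+ cells passed the test for both (adjusted p = 0.00116 and 0.00115), although that of Slc6a12 was lost on log2(TPM + 0.1). Slc6a13 was a member only through its level in the WT groups, so a fall in KO was in part fixed by the membership rule.

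Since the pair moved together, the 250 bases before each RefSeq start site (GRCm38.p6) were searched on both strands for GTGGGAA, the motif of Rbpj, the DNA-binding protein of Notch signalling. The motif was found at both genes, and the stretches around it are shown 5′ to 3′ on the plus strand, with the motif or its reverse complement in capitals.
Slc6a13, first start site (chr6:121300619-121300648): tctacgccaatgTTCCCACtgtcacagacc
Slc6a13, second start site (chr6:121303568-121303597): ttccacacccctGTGGGAAgccttggacag
Slc6a12 (chr6:121343098-121343127): gagaccaggtgaGTGGGAAgagcatgcgca
The stretches lie before RefSeq start sites but inside the gene spans given above, and that of Slc6a12 overlaps 1 exon annotated in GENCODE M21. The motif is common. It was found before 6.18% of the 27025 genes in the promoter table and before 12 of the 129 members that could be matched to it. Of the members called lower in CD4+ cells, 3 of 22 with a promoter held it (Slc37a3, Slc6a12 and Slc6a13), and of those called higher, 2 of 49 (Slc27a1 and Slc5a6). Slc8a2 had no GTGGGAA in its window, and a match or its absence says only which letters are there.

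The organic carriers Slc16a6 and Slc14a1 fell in the same cells. Slc16a6, a monocarboxylate transporter family protein, stood at 32.3, 17.3 and 16.7 CPM in WT and 3.92, 6.95 and 5.02 in KO CD4+ libraries (-2.06, SE 0.35, adjusted p = 0.000191). It was called lower in CD4-CD8- cells as well (-1.38) and not in CD8+ cells (-0.52), where WT and KO values overlapped. Slc14a1, the urea transporter UT-B, went from 94, 68 and 91.7 to 53.5, 32.7 and 36.8 CPM in CD4+ cells (-1.04, SE 0.23, adjusted p = 0.00173).

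**Figure D2:**
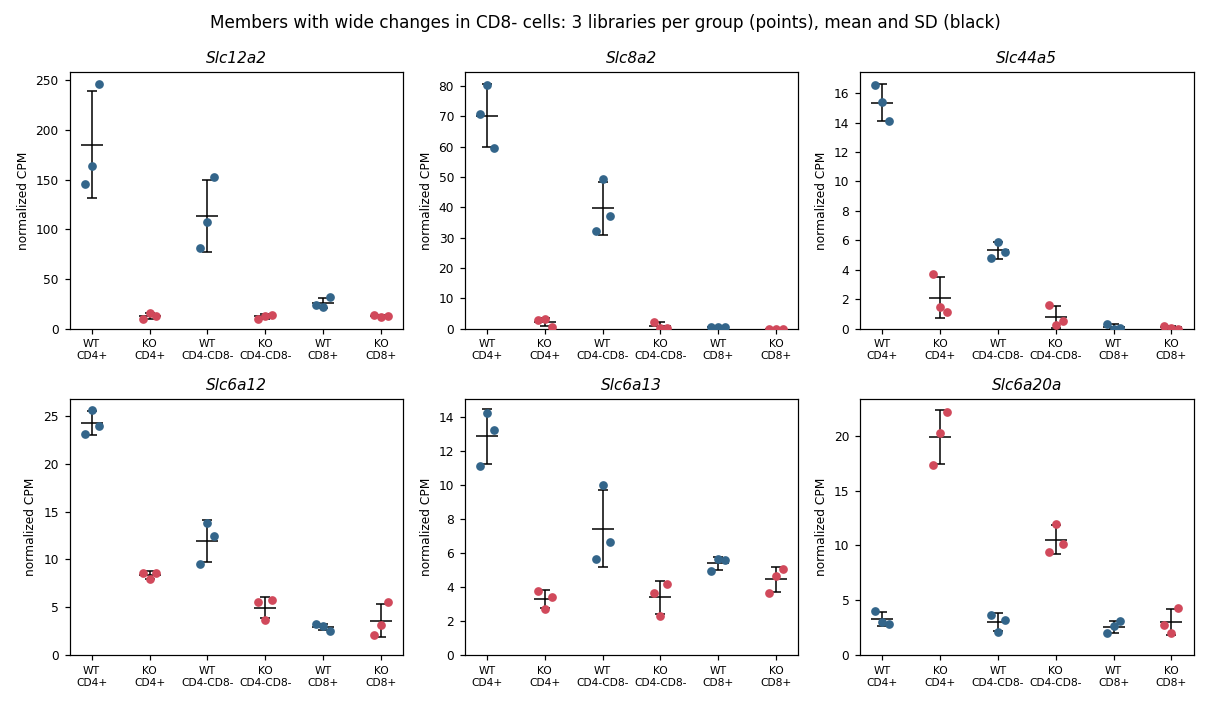
Normalised CPM (y axis, linear from 0) of Slc12a2, Slc8a2, Slc44a5, Slc6a12, Slc6a13 and Slc6a20a in the 6 groups (x axis), with 1 point per library (WT blue, KO red) and the mean and SD in black. In CD4+ and CD4-CD8- cells the first 5 were lower and Slc6a20a higher in every KO library than in every WT library; CD8+ cells held little Slc8a2 or Slc44a5.

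Among carriers of amino acids and osmolytes, Slc6a20a, Slc7a8 and Slc5a3 rose in KO CD4+ cells. Slc6a20a, a transporter of proline and related imino acids, stood at 4.05, 3.04 and 2.8 CPM in WT and 17.3, 20.3 and 22.1 in KO CD4+ libraries (2.59, SE 0.24, adjusted p = 3.8e-07). It rose in CD4-CD8- cells (1.79) and was not called in CD8+ cells (0.23, adjusted p = 0.643). It was a member only through its level in the KO CD8- groups. Slc7a8, or LAT2, exchanges neutral amino acids together with Slc3a2 and is in WT a gene of CD8+ cells. It stood at 13.3, 17.1 and 15.5 CPM in WT CD8+ libraries, and in CD4+ libraries at 1.15, 1.52 and 2.07 in WT and 8.4, 10.4 and 9.75 in KO. Its rise was 2.59, SE 0.19, adjusted p = 2.65e-08 in CD4+ cells and 0.95 in CD4-CD8- cells, the latter lost on the TPM scale, and the CD4+ effect exceeded the CD4-CD8- effect (difference 1.64, adjusted p = 0.0021). Slc5a3, which takes up the osmolyte myo-inositol with sodium, went from 0.906, 1.57 and 2.47 to 5.09, 5.41 and 8.24 CPM in CD4+ cells (1.92, SE 0.35, adjusted p = 0.000395). It was not called in CD4-CD8- (0.79) or CD8+ cells (-0.76). Its level in every WT group was under the 5 CPM of the membership rule, so a rise in KO was in part fixed by that rule.

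Carriers of metals and heme include the ZIP proteins (Slc39), which bring zinc into the cytosol, the ZnT proteins (Slc30), which move it out or into vesicles, and carriers of copper, iron, magnesium and heme. Of 23 members, 13 were called higher and 2 lower in CD4+ cells and 12 and 1 in CD4-CD8- cells, while in CD8+ cells 2 were called higher and 4 lower. The class follows the family number and so holds Slc49a4, described below with the carriers of endosomes and lysosomes. The shares called higher were 56.5%, 52.2% and 8.7%, beside 18.5%, 14.6% and 7.01% of all genes, and the shares called lower 8.7%, 4.35% and 17.4%, beside 16.6%, 11.3% and 8.68%. The class medians were 0.26, 0.27 and -0.08 on the log2 scale, and on the TPM scale 8 were called higher and 1 lower, 4 and 2, and 0 and 5, with a median that turned to -0.09 in CD4-CD8- cells. The difference between populations passed the test for 12 members in CD4+ against CD8+ cells and for 10 in CD4-CD8- against CD8+ cells, all with the higher effect in the CD8- population (background 12.6% and 8.24%).

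Slc48a1, or HRG1, exports heme from the phagolysosome and is known from macrophages that digest red cells. It stood at 60.3, 58.8 and 55.7 CPM in WT CD4+ libraries and 127, 172 and 141 in KO ones, and at 66.8, 56.3 and 56.8 and 103, 116 and 130.4 in CD4-CD8- cells. The 6 CD8+ libraries stayed between 48 and 57.5 CPM. The log2 differences were 1.33, SE 0.11, adjusted p = 1.09e-07 in CD4+, 0.95, SE 0.11, adjusted p = 1.16e-05 in CD4-CD8- and -0.04 in CD8+ cells, where it was not called.

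Slc31a2, which acts on copper in endosomes, rose in every population. It measured 8.88, 10.1 and 11.1 CPM in WT and 33.2, 27.4 and 32 in KO CD4+ libraries, and 44.7, 45.2 and 45 and 70.5, 69.5 and 63.6 in CD8+ libraries. The log2 differences were 1.62, SE 0.11, adjusted p = 7.57e-09 in CD4+, 1.15 in CD4-CD8- and 0.59 in CD8+ cells, the last lost on the TPM scale. Slc31a1, the copper importer of the plasma membrane, was not called in any population (between -0.23 and 0.01).

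Among the zinc importers, Slc39a1 went from 49.4, 55.2 and 48.8 to 119, 98.4 and 101 CPM in CD4+ cells and from 58.6, 57 and 54.2 to 106, 102 and 100.5 in CD4-CD8- cells. The rises were 1.05, SE 0.08, adjusted p = 3.92e-08 and 0.86, SE 0.08, adjusted p = 1.16e-06. In CD8+ cells it was called lower by a small margin (-0.25, adjusted p = 0.0499), a call lost with upper quartile scaling and without single libraries. Slc39a10 rose by 0.99 in CD4+ and 0.75 in CD4-CD8- cells, and Slc39a14, which also carries iron, by 0.99 and 0.74. On the TPM scale the rises of Slc39a14, and that of Slc39a10 in CD4-CD8- cells, were lost. Slc39a6 went the other way in all 3 populations (-0.63, -0.41 and -0.32, the last lost on the TPM scale).

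Slc30a1, the zinc exporter of the plasma membrane, stood at 24.5, 21.7 and 21 CPM in WT and 37.3, 35.9 and 35 in KO CD4+ libraries (0.69, SE 0.10, adjusted p = 6.02e-05). In CD4-CD8- cells it rose by 0.51, which was lost on the TPM scale, and CD8+ values overlapped (-0.01). Slc30a4 rose in both CD8- populations (0.53 and 0.53, lost on the TPM scale), while Slc30a5 fell in CD4+ cells (-0.34, lost on the TPM scale) and Slc30a6 and Slc30a9 were not called. Slc11a2, the ferrous iron carrier DMT1, rose in CD4+ cells from 18.6, 20.3 and 21 to 27.9, 27.6 and 27.3 CPM (0.47, SE 0.11, adjusted p = 0.00335). The magnesium carrier family member Slc41a3 rose in all 3 populations (0.96, 0.68 and 0.63, the last lost on the TPM scale), and Slc41a1 fell in CD8+ cells (-0.79, lost without KO CD8+ library 1).

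**Figure D3:**
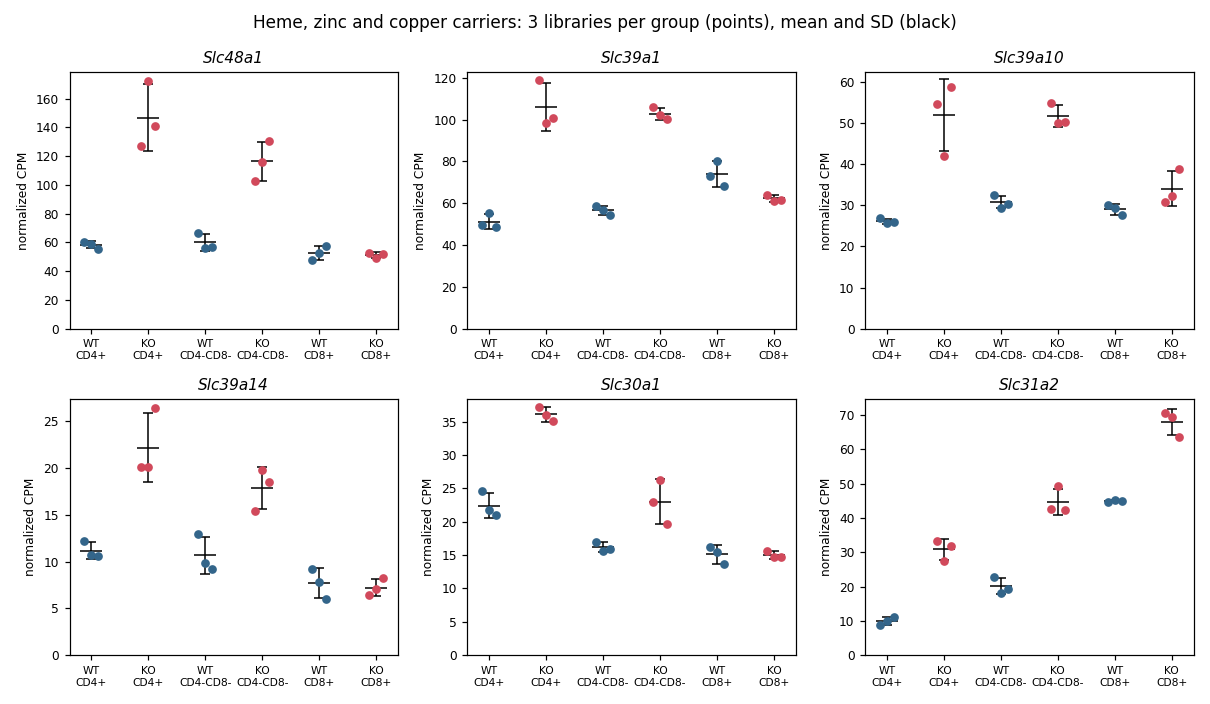
Normalised CPM (y axis, linear from 0) of the heme carrier Slc48a1, the zinc carriers Slc39a1, Slc39a10, Slc39a14 and Slc30a1 and the copper protein Slc31a2 in the 6 groups (x axis), with 1 point per library (WT blue, KO red) and the mean and SD in black. In CD4+ cells every KO library lies above every WT library for all 6 genes; in CD8+ cells this holds for Slc31a2 and Slc39a10, of which Slc39a10 was not called.

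Other genes of metal handling went in both directions. Slc30a1 and the metallothioneins Mt1 and Mt2, small proteins that bind zinc and copper, are known targets of the zinc-sensing factor Mtf1. Mt1 stood at 7.06 CPM in WT and 30.9 in KO CD4+ cells (log2 difference 2.12, SE 0.22, adjusted p = 9.99e-07) and at 4.22 and 17.5 in CD4-CD8- cells (2.05), and was not called in CD8+ cells (0.19). Mt2 was low, at 0.51 and 3.26 CPM in CD4+ cells, and was called higher there and in CD4-CD8- cells. Mtf1 itself was called in no population (-0.10, -0.14 and -0.19). Of a list of 19 tested genes for metal handling, 9 were called higher and 3 lower in CD4+ cells, 6 and 1 in CD4-CD8- cells, with 1 and 2 in CD8+ cells (63.2%, 36.8% and 15.8% called, beside 35.1%, 25.9% and 15.7% of all genes). The ferroxidase Cp rose in CD4+ cells from 0.89 to 6.67 CPM (2.87) and fell in CD8+ cells from 5.28 to 1.12 (-2.22). Steap3, an endosomal iron reductase, rose in all 3 (3.53, 1.45 and 2.19). The heme oxygenase Hmox1 rose in CD4+ cells from 28.3 to 157 CPM (2.48) and was not called in CD4-CD8- (0.33) or CD8+ cells (0.16). The transferrin receptor Tfrc fell in CD4+ (-1.46) and CD4-CD8- cells (-0.76).

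The metal response element to which Mtf1 binds has the core TGCRCNC, here searched as TGCACNC and TGCGCNC on both strands of the 250 bases before each start. Upstream of Slc30a1 a core on the minus strand begins 43 bases before the start site. It is shown 5′ to 3′ on the plus strand with the core in capitals.
Slc30a1 (chr1:191906726-191906755): aacgggggttccGAGTGCAaagcaaagttt
Either core was found before 23.8% of all genes in the table, before 44 of 129 matched members and before 9 of 19 matched members of the metal and heme class, Slc31a2 and Slc41a3 among them. Of the members called higher in CD4+ cells 16 of 49 held it, and of those called lower 9 of 22.

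Macrophages of the red pulp and monocytes also carry much Slc48a1 and Hmox1, and many of their markers, though not all, were higher in the KO CD8- groups. Of 11 red pulp macrophage genes 9 were called higher and 1, Spic, lower in KO CD4+ cells, and their sum went from 618 to 686 CPM in WT to 1043 to 1171 in KO libraries. In CD4-CD8- cells 4 were called higher and 1 lower (346 to 433 and 464 to 568 CPM). Spic, the transcription factor that defines these macrophages, fell from 13.8 to 5.17 CPM in CD4+ cells. Adgre1, the most abundant gene of this list in WT CD4+ cells, went from 478 to 345 CPM there and from 236 to 209.5 in CD4-CD8- cells. In CD4-CD8- cells Mrc1 alone went from 11.3 to 136 CPM, while Hmox1 (31.6 to 34.5) and C1qa (22.3 to 27.5) changed little. Of 8 tested monocyte genes 6 were called higher and 1 lower in CD4+ cells. Their sum went there from 3688 to 4906 CPM in WT to 11890 to 15740 in KO libraries, and Lyz2 alone from 1888 to 11010. Means of Nr4a1 (1758 to 1001 CPM) and Ace (52.6 to 15.7) were lower in KO CD4+ cells. Markers of erythroid cells were higher as well in KO CD4+ cells, where 4 of 5 tested genes were called and the sum of 6 went from 18.4 to 48.8 CPM in WT to 66.4 to 236 in KO libraries. In CD4-CD8- cells none of the 5 was called and the sums overlapped, and in CD8+ cells 3 were called higher. Hmox1 stands in both the macrophage and the metal handling list. The part of these cell types in the rise of the metal and heme carriers was not tested.

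Several carriers of endosomes and lysosomes, chosen after their values were seen, had KO differences of opposite sign in CD8- and CD8+ cells. Others did not, among them Slc31a2, Slc48a1, Slc9a9 and Slc38a9. Slc15a3 and Slc15a4 move histidine and small peptides, bacterial muropeptides among them, out of the endolysosome, and Slc15a4 is known to be needed for signalling by endosomal Toll-like receptors. Slc15a3 stood at 23, 15.9 and 23.3 CPM in WT and 9.19, 10.7 and 11.4 in KO CD8+ libraries (-0.99, SE 0.16, adjusted p = 0.000367). In CD4+ cells it stood at 73.7 ± 11.1 in WT and 95 ± 12 in KO (mean ± SD, n = 3), and the calls there (0.37) and in CD4-CD8- cells (0.48) were lost on the TPM scale and without single libraries. The KO effect in CD4-CD8- cells differed from that in CD8+ cells by 1.47, SE 0.21, adjusted p = 0.000218. Slc15a4 fell in CD8+ cells from 57.6, 39.4 and 64.1 to 34.2, 37.5 and 33 CPM (-0.62, SE 0.14, adjusted p = 0.0052) and was not called in CD4+ (0.20) or CD4-CD8- cells (0.21). Its fall in CD8+ cells was lost without the 3 WT libraries numbered 3.

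The proton-coupled amino acid carrier Slc36a1, which sits on lysosomes, stood at 13.1, 13.7 and 13.9 CPM in WT and 24.5, 27.7 and 27.2 in KO CD4+ libraries (0.96, SE 0.11, adjusted p = 2.76e-06). In CD8+ cells it stood at 6.68, 8.02 and 7.4 in WT and 4.56, 6.41 and 5.98 in KO, a fall of small size (-0.38) whose call was lost on the TPM scale and without single libraries. The sialic acid exporter Slc17a5 fell in CD8+ cells from 11.6, 11.1 and 12.2 to 7.95, 6.97 and 5.91 CPM (-0.74, SE 0.13, adjusted p = 0.000812), and rose in CD4+ (0.47) and CD4-CD8- cells (0.38), both lost on the TPM scale. The lysosomal nucleoside carrier Slc29a3 had the same signs (0.33, 0.43 and -0.49), as did Slc49a4 (1.09, 0.78 and -0.56). For Slc29a3 the rises were lost on the TPM scale and the fall without the 3 WT libraries numbered 3. For Slc49a4 the rise in CD4-CD8- cells and the fall in CD8+ cells were lost on the TPM scale. For all 5 of Slc15a3, Slc36a1, Slc17a5, Slc29a3 and Slc49a4 the difference between the effects in CD4+ and CD8+ cells passed the test, with adjusted p between 1.57e-05 (Slc36a1) and 0.00129 (Slc29a3). All 5 had been called with opposite signs in these populations, so this outcome was largely fixed by their choice and is no separate result.

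The lysosomal Slc46a3 fell in CD4+ cells from 556, 598 and 606 to 344, 309.6 and 323 CPM (-0.85, SE 0.09, adjusted p = 2.25e-06), less so in CD4-CD8- cells (-0.29, lost without single libraries), and was not called in CD8+ cells (0.16). The difference between the CD4+ and CD4-CD8- effects (-0.56) was lost on the TPM scale and without single libraries.

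Markers of other cell types fell in the same KO CD8+ libraries as Slc15a3, Slc15a4 and Slc17a5. In the cDC2 list 5 of 8 genes were called lower (137 to 199 CPM in WT and 30.3 to 48.2 in KO). In the plasmacytoid DC list 4 of 7 were (366 to 518 and 199 to 275 CPM), and in the B cell list 4 of 8 (38.2 to 54.2 and 10.8 to 18.2 CPM). Stromal and endothelial markers summed to 82.02 to 95.4 CPM in WT and 20.5 to 27.9 in KO, with 3 of 4 tested genes called lower. Most of that sum was Pecam1, at 60.7 CPM in WT and 14.3 in KO CD8+ cells, which also went from 70.4 to 18.7 in CD4+ cells. The sum of the monocyte list rose in CD8+ cells (929 to 1228 CPM in WT and 1641 to 2228 in KO). In it Lyz2 went from 166 to 864 CPM and Ccr2 from 144 to 618. Other genes of that list fell, among them Nr4a1 (621 to 447), Ly6c2 (92.56 to 63.85) and Csf1r (75.3 to 10.1). The erythroid list rose as well (63.3 to 83 and 143 to 290.5). Slc15a3 (1.83) and Slc15a4 (1.57) were higher in WT CD4+ than in WT CD8+ cells. The part of these cell types in the CD8+ falls was not tested.

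**Figure D4:**
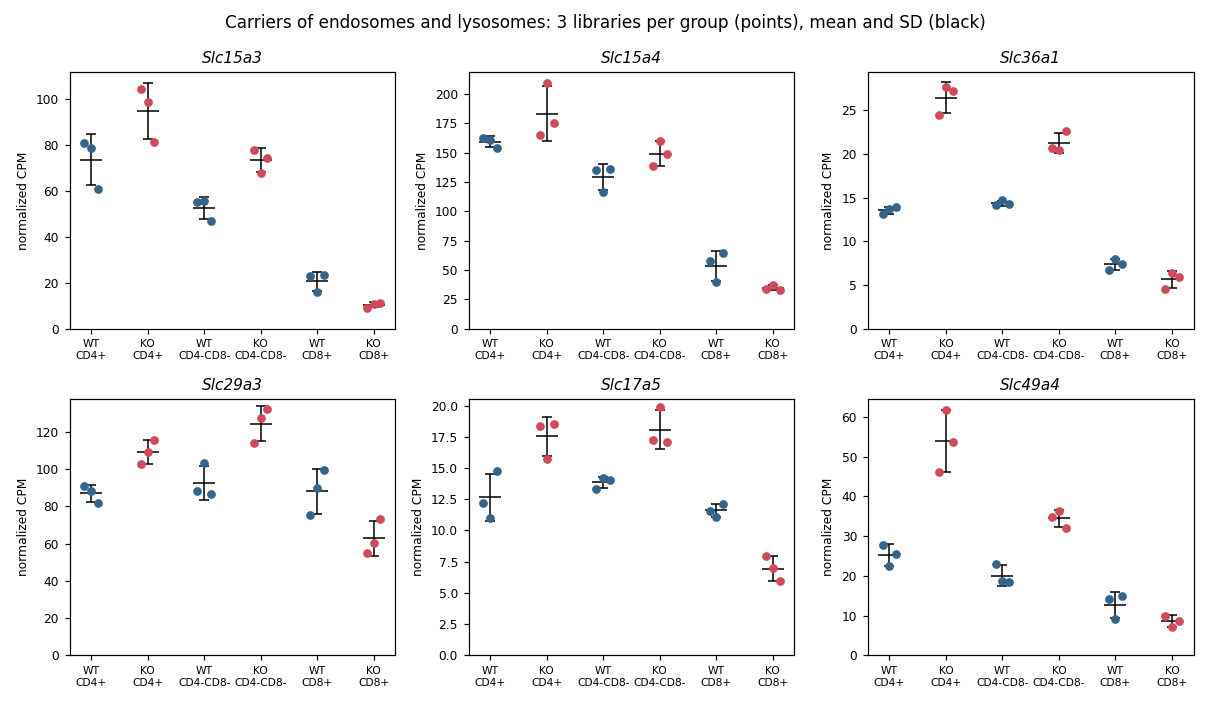
Normalised CPM (y axis, linear from 0) of 6 carriers of endosomes and lysosomes (Slc15a3, Slc15a4, Slc36a1, Slc29a3, Slc17a5 and Slc49a4) in the 6 groups (x axis), with 1 point per library (WT blue, KO red) and the mean and SD in black. KO means are above WT means in CD4+ and CD4-CD8- cells and below them in CD8+ cells for all 6; Slc15a4 was called in CD8+ cells only.

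Tfeb and its relative Mitf drive many lysosomal genes through a motif with the core CACGTG. That core stood before 6.86% of all genes in the promoter table and before 20 of 129 matched members. Of the members called higher in CD4+ cells 8 of 49 held it, Slc36a1, Slc49a4, Slc38a7 and Slc12a9 among them, and of those called lower 3 of 22. The stretches before Slc36a1 (plus strand) and Slc49a4 (minus strand) are shown 5′ to 3′ on the strand of the gene, with CACGTG in capitals, since both genes rose in CD8- cells and fell in CD8+ cells.
Slc36a1 (chr11:55204220-55204339): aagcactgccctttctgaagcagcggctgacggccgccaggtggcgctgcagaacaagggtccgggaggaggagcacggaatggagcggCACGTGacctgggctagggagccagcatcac
Slc49a4 (chr16:35769481-35769600): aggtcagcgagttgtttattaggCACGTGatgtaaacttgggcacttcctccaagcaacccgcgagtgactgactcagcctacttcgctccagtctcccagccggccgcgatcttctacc
Tfeb was called lower in all 3 populations (-0.60, -0.57 and -0.38), and Mitf rose in CD4+ (4.18 to 15.1 CPM, 1.84) and CD4-CD8- cells (1.14) and was not called in CD8+ cells (0.37). In the list of amino acid response and lysosomal mTORC1 sensing, 6 of 29 genes were called higher and 5 lower in CD4+ cells, 5 and 3 in CD4-CD8- cells, with 1 and 5 in CD8+ cells. This is 37.9%, 27.6% and 20.7% called, near the 35.1%, 25.9% and 15.7% of all genes. Sesn2, a leucine sensor, fell in all 3 (-1.11, -0.68 and -0.44). Fnip2, a partner of folliculin, rose in CD4+ (1.5) and CD4-CD8- cells (1.27). Slc38a9, the arginine sensor of the lysosome, was not called in any population (-0.16, 0.23 and 0.26).

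The amino acid class had 25 members by family number, Slc7a6os included. Of these 8 were called higher and 5 lower in CD4+ cells, 8 and 4 in CD4-CD8- cells, with 2 and 6 in CD8+ cells. The class medians were 0.05, 0.20 and -0.12 on the log2 scale. The shares called, 52%, 48% and 32%, stood beside 35.1%, 25.9% and 15.7% of all genes. On the TPM scale the median was -0.03 and -0.04 in the first 2. Slc3a2 fell in CD4+ cells from 227, 184 and 178 to 118, 158 and 131 CPM (-0.53, SE 0.11, adjusted p = 0.00115) and in CD4-CD8- cells (-0.41, lost without KO CD4-CD8- library 1), and its partner Slc7a5, the large neutral amino acid exchanger, was not called anywhere (-0.20, 0.21 and -0.12). Slc1a5 was called in CD4-CD8- cells only (0.29), and that call was lost on the TPM scale and without single libraries. The glutamine carrier Slc38a1 fell in CD4+ cells from 214 ± 3.72 to 163 ± 5.29 CPM (-0.39), and Slc38a2 fell in CD8+ cells from 149 ± 13.1 to 109 ± 9.56 (-0.45) while rising in CD4+ cells (0.36, lost on the TPM scale).

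Slc7a7 and Slc7a11 bind Slc3a2 as well. Slc7a7, which exports cationic amino acids, was called higher in KO CD8+ cells, from 11, 15.7 and 17.3 to 24.2, 31 and 34 CPM (1.02, SE 0.19, adjusted p = 0.00113). This was lost on the TPM scale. Slc7a11, the cystine/glutamate exchanger that feeds glutathione synthesis, stood at 15.4 ± 0.477 CPM in WT CD4+ and 1.37 ± 0.378 in WT CD8+ cells. It was called lower in KO CD8+ (-1.13) and CD4-CD8- cells (-0.63), the former lost on the TPM scale and both without single libraries. In a list of 12 tested genes of glutathione and redox, 2 were called higher and 2 lower in CD4+ cells, 1 and 2 in CD4-CD8- cells, with 0 and 4 in CD8+ cells. This is 33.3%, 25% and 33.3% called, beside 35.1%, 25.9% and 15.7% of all genes. In CD8+ cells Gclc, the rate-limiting enzyme of glutathione synthesis, fell from 129 to 43.2 CPM (-1.58, SE 0.14, adjusted p = 1.1e-06), and glutathione reductase Gsr from 90.5 to 37.7 (-1.26).

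In the inorganic ion class, 10 of 25 members were called higher and 6 lower in CD4+ cells, 6 and 8 in CD4-CD8- cells, with 2 and 9 in CD8+ cells. By family number this class includes Slc9a3r1, Slc9a3r2 and Slc4a1ap, which are not carriers. Of the class 64%, 56% and 44% were called, beside 35.1%, 25.9% and 15.7% of all genes. Slc12a4, a potassium/chloride cotransporter that moves these ions out of cells, rose in CD4+ cells from 20.9 ± 1.45 to 43.1 ± 3.21 CPM (1.04, SE 0.10, adjusted p = 3.94e-07) and in CD4-CD8- cells (0.79), and fell slightly in CD8+ cells (-0.32, lost with upper quartile scaling and without single libraries). Slc12a7, of the same family, went opposite ways in the 2 CD8- populations. It stood at 2.84, 3.09 and 3.47 CPM in WT and 8.24, 5.92 and 7.52 in KO CD4+ libraries, and at 19.1, 12.5 and 16.9 and 9.25, 7.83 and 7.66 in CD4-CD8- libraries. The effects differed by 2.17, SE 0.23, adjusted p = 7.28e-05, which was lost on the TPM scale.

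The nucleoside carrier Slc28a2 had the same pattern as Slc12a7. It went from 4.53, 3.85 and 4.47 to 5.64, 6.15 and 6.95 CPM in CD4+ cells and from 14.7, 10.7 and 11.7 to 7.53, 4.22 and 6.36 in CD4-CD8- cells (difference of effects 1.57, SE 0.25, adjusted p = 0.00161). Its rise in CD4+ cells was lost on the TPM scale. T and NK cell markers were several times higher in the WT than in the KO CD4-CD8- libraries (9 of 9 T and 7 of 8 NK cell genes called lower), and their part in the falls of Slc12a7 and Slc28a2 there was not tested.

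The bicarbonate carrier Slc4a8 had the steepest fall of any called member in CD8+ cells, from 23, 27.4 and 21 to 6.85, 6.62 and 5.59 CPM (-1.91, SE 0.23, adjusted p = 2.47e-05). In CD4-CD8- cells it went from 21.6, 32.9 and 22.1 to 16.4, 18.9 and 11.4 CPM without overlap (-0.71, SE 0.22, adjusted p = 0.0222), a call lost on the TPM scale and without single libraries. In CD4+ cells WT and KO values overlapped (-0.35). The phosphate importer Slc20a2 was highest in WT CD8+ cells, at 20.8, 20.3 and 24.1 CPM, and fell there to 10.3, 10.2 and 12.7 (-0.98, SE 0.13, adjusted p = 6.58e-05), while it was not called in CD4+ (0.00) or CD4-CD8- cells (0.03). Slc20a1, the other phosphate importer, was called in none. Of the sodium/proton exchangers, Slc9a9 of endosomes fell in CD4+ cells from 72.6 ± 5.63 to 43.7 ± 4.15 CPM (-0.73), Slc9a7 rose in CD4+ cells (0.42, lost on the TPM scale), and Slc9a8 was called in none. The sulfate carrier Slc26a2 fell in CD8+ cells from 45.7 ± 1.8 to 26.7 ± 3.93 CPM (-0.77).

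The scaffolds Slc9a3r1 and Slc9a3r2 went apart. Slc9a3r1 fell in CD4+ cells from 155, 157 and 147 to 78, 82 and 72.7 CPM (-0.98, SE 0.10, adjusted p = 8.56e-07) and in CD4-CD8- cells (-0.81). Slc9a3r2 was low outside CD8+ cells and rose there from 6.34, 6.58 and 6.04 to 14.4, 13.4 and 12.7 CPM (1.09, SE 0.23, adjusted p = 0.00278). Stk39, a kinase that switches Slc12a2 on, fell in CD4-CD8- (11.7 to 5.19 CPM, -1.17) and CD8+ cells (10.2 to 2.61, -1.97) and not in CD4+ cells (0.17, not called). In the list of 16 partners and trafficking factors, 5 were called higher and 4 lower in CD4+ cells, 4 and 4 in CD4-CD8- cells, with 3 and 3 in CD8+ cells. This is 56.2%, 50% and 37.5% called, beside 35.1%, 25.9% and 15.7% of all genes.

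Mitochondrial carriers were the largest class and the one with the fewest calls among the large classes in CD4-CD8- cells. Of 34 members 6 were called higher and 5 lower in CD4+ cells, 5 and 1 in CD4-CD8- cells, with 3 and 3 in CD8+ cells. Those shares, 32.4%, 17.6% and 17.6%, lay near those of all genes (35.1%, 25.9% and 15.7%). The exception in size was Slc25a24, a calcium-regulated carrier of ATP and phosphate. It stood at 8.16, 9.54 and 10.7 CPM in WT and 39.1, 31.1 and 39.8 in KO CD4+ libraries (1.96, SE 0.13, adjusted p = 6.62e-09), and rose by 0.70 in CD4-CD8- and 0.66 in CD8+ cells, without overlap of WT and KO values in any of them. The effect in CD4+ cells exceeded that in CD4-CD8- cells (difference 1.26, adjusted p = 0.000516). The dicarboxylate carrier Slc25a10 rose in CD4+ cells from 50.6, 46.6 and 46.5 to 94, 117 and 93.4 CPM (1.08, SE 0.09, adjusted p = 1.09e-07) and in CD4-CD8- cells (0.77), and not in CD8+ cells (-0.23). Slc25a26, which brings the methyl donor S-adenosylmethionine into mitochondria, was highest in WT CD8+ cells and fell there from 14.3, 14.1 and 15 to 7.56, 6.76 and 8.57 CPM (-0.92, SE 0.14, adjusted p = 0.000227, lost on the TPM scale). The oxoglutarate carrier Slc25a11 fell in CD4+ cells (-0.44). In CD8+ cells Slc25a32, a carrier of folate, and Slc25a12, an aspartate/glutamate carrier, were called higher (0.35 and 0.34), and both calls were lost on the TPM scale and without single libraries, that of Slc25a32 also with DESeq2 and with no filter on low counts. Slc25a16 had a difference between the CD4+ and CD4-CD8- effects (-0.56) that was lost in 16 of 22 alternatives. Slc25a29, which carries basic amino acids, was 0.58 in CD4-CD8- and -0.94 in CD8+ cells (difference 1.52, SE 0.30, adjusted p = 0.00284), where the first call was lost on the TPM scale and in several other settings. Slc25a37 and Slc25a28, the mitoferrins that bring iron in for heme and iron-sulfur clusters, were called in none of the populations.

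Carriers of sugars and nucleotide sugars numbered 31, of which 9 were called higher and 7 lower in CD4+ cells, 9 and 3 in CD4-CD8- cells, with 0 and 2 in CD8+ cells. The shares called higher were 29%, 29% and 0%, beside 18.5%, 14.6% and 7.01% of all genes, and those called lower 22.6%, 9.68% and 6.45%, beside 16.6%, 11.3% and 8.68%. Slc2a3, the high-affinity glucose transporter GLUT3, fell in CD8+ and CD4+ cells. It stood at 51.1, 35.9 and 59 CPM in WT and 14.1, 16.5 and 26.8 in KO CD8+ libraries (-1.34, SE 0.19, adjusted p = 0.000104), in CD4+ cells went from 195 ± 3.19 to 117 ± 6.76 (-0.74), and was not called in CD4-CD8- cells (-0.17). Slc2a3 was higher in WT CD4+ than in WT CD8+ cells, and the markers that fell in the KO CD8+ libraries are given above. Of the Golgi carriers, Slc35c2 fell in CD4+ cells from 190.4 ± 13.3 to 126 ± 4.85 CPM (-0.59) and not in CD4-CD8- (0.11) or CD8+ cells (0.05), and Slc35a1, which carries CMP-sialic acid, was called in none. Slc35f5, Slc35f6 and Slc35e4, whose substrates are less well known, rose in CD4+ cells (0.88, 0.93 and 1.26). Slc35g1 fell in CD4-CD8- cells from 4.11, 2.85 and 2.65 to 1.13, 1.15 and 1.46 CPM (-1.37, SE 0.30, adjusted p = 0.00286).

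In the smaller classes a few members moved. Of 6 monocarboxylate and carboxylate carriers, the aromatic amino acid carrier Slc16a10 rose in CD4+ cells from 9.59 ± 1.2 to 22.1 ± 3.23 CPM (1.21), whereas the lactate carriers Slc16a1 and Slc16a3 were not called there (0.32 and -0.27). Slc16a7, another lactate and pyruvate carrier, was called higher in CD4-CD8- cells, from 12 ± 0.378 to 21.5 ± 0.696 CPM (0.85, lost on the TPM scale). Of 7 organic ion carriers 5 were called higher and 1 lower in each CD8- population, with 1 and 1 in CD8+ cells. Of all genes 18.5%, 14.6% and 7.01% were called higher in CD4+, CD4-CD8- and CD8+ cells, and 16.6%, 11.3% and 8.68% lower. Slc22a5, the carnitine importer, rose in CD4+ cells from 10.7 ± 1.04 to 20.1 ± 0.981 CPM (0.91), and Slc22a18 rose in all 3 populations (1.37, 1.5 and 0.94). Of 7 vitamin and cofactor carriers 4 were called higher and 1 lower in CD4+ cells (18.5% and 16.6% of all genes). In CD8+ cells none of them was called (15.7% of all genes). Among these carriers the ascorbate importer Slc23a2 rose in CD4+ (0.65) and CD4-CD8- cells (0.63), both lost on the TPM scale. The nucleoside carrier Slc29a1 was called in no population (-0.06, 0.08 and -0.09).

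Transporters outside the solute carrier families were listed for comparison. Of 28 ABC transporters, which use ATP, 11 were called higher and 4 lower in CD4+ cells, 7 and 2 in CD4-CD8- cells, with 1 and 7 in CD8+ cells (53.6%, 32.1% and 28.6% called, beside 35.1%, 25.9% and 15.7% of all genes). Abcb1a, a drug efflux pump, fell from 82.5 to 1.71 CPM in CD4+ cells (-5.55, SE 0.38, adjusted p = 9.32e-09) and from 48.4 to 2.21 in CD4-CD8- cells (-4.43). Abca9 rose from 45.1 to 259 CPM in CD4+ cells (2.52). Of 39 tested carriers without an Slc symbol, 10 were called higher and 8 lower in CD4+ cells, 16 and 5 in CD4-CD8- cells, with 1 and 5 in CD8+ cells (46.2%, 53.8% and 15.4% called). Mfsd2a, which carries lysophospholipids, fell in CD4+ cells from 4.00 to 0.40 CPM (-3.26).

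The populations also differed from each other in WT mice. Between WT CD4+ and WT CD8+ cells 54 members were called higher and 61 lower (22.6% and 23% of all genes), between WT CD4-CD8- and WT CD8+ cells 47 and 57 (21.9% and 21%), and between WT CD4+ and WT CD4-CD8- cells 24 and 20 (7.12% and 9.63%). These comparisons share WT libraries with each other and with those above. On the TPM scale the counts were 45 and 40, 49 and 24, and 4 and 13, and the median of all genes was shifted by 0.137 in the second and -0.142 in the third.

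Slc8b1, or NCLX, is the sodium/calcium exchanger of mitochondria (chr5:120511168-120534024, GRCm38). It stood at 405, 459.6 and 382 CPM in WT CD8+ libraries, 59, 52.1 and 54.9 in WT CD4+ and 77.9, 66.5 and 67.8 in WT CD4-CD8- libraries, and was called in neither direction by the knockout. WT CD4+ cells had less of it by -2.91, SE 0.13, adjusted p = 2.69e-11. Another calcium exchanger, Slc8a2, was higher in WT CD4+ than in WT CD8+ cells by 6.97, SE 0.60, adjusted p = 1.99e-07. Also lower in WT CD4+ than in WT CD8+ cells were Slc22a23 (-3.49), Slc7a8 (-3.28), Slc12a7 (-3.05) and Slc35g1 (-2.87). Between WT CD4-CD8- and WT CD8+ cells, the magnesium carrier family member Slc41a2 (-2.22) and the carnitine carrier Slc22a21 (-1.91) were also lower. Higher in WT CD4+ than in WT CD8+ cells were Slc44a5, which CD8+ libraries hardly held, Slc7a11 (3.49), Slc6a12 (3.04) and Slc12a2 (2.85). So was the lactate exporter Slc16a3, which stood at 36 ± 6.05 CPM in WT CD4+ and 6.99 ± 0.254 in WT CD8+ cells (2.36).

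Within the CD8- populations, WT CD4+ cells had more Slc44a5 (1.53), Slc6a12 (1.02), Slc7a11 (0.90) and the sugar phosphate exchanger Slc37a2 (0.85) than WT CD4-CD8- cells. The call of Slc44a5 was lost without any 1 of these 6 libraries, those of Slc6a12 and Slc7a11 without the WT libraries numbered 3, and that of Slc37a2 on the TPM scale. They had less Slc12a7 (-2.37), Slc25a24 (-1.62), Slc28a2 (-1.53) and Slc31a2 (-1.01). Slc37a2 stood at 24.7, 30.9 and 21.6 CPM in WT and 30.1, 30.5 and 26.6 in KO CD4+ libraries, and its KO differences were 0.17, 0.13 and 0.13, none of them called.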

How the data were processed

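Poly(A) RNA of sorted cells was sequenced as single reads. Per the submitters' processing notes the reads were handled with FastQC 0.11.8, Salmon 0.14.1 and GRCm38; the strand setting is not given in the sources used here. The authors deposited estimated counts per transcript, without normalization, and TPM per transcript, which is scaled for transcript length and library total.

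Estimated counts were summed per gene and rounded. Transcripts were given genes by the TPM table and GENCODE M21, and 115 transcripts without a gene, at most 0.16% of a library's counts, were left out. Counts of 18 libraries were fitted by group in edgeR 4.0.16 (R 4.3.3) with filterByExpr, TMM scaling and the quasi-likelihood test, which was also tested on simulated data. P-values were adjusted by Benjamini-Hochberg over 13381 genes, and a standard error is the log2 difference divided by the square root of F. CPM of single libraries are TMM-normalised, while marker sums use library totals. TPM were tested with limma 3.58.1 on log2(TPM + 1), and DESeq2 1.42.0 was run as an alternative. Replicates differed by a chi-square per gene of 9.25 to 31.7, so none was a repeat of another.

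Named genes were the 8 called members with the largest rise and fall per KO comparison whose values did not overlap at 5 CPM or more, the 4 per direction of each difference between populations, the 6 per direction between WT populations, the 10 with the highest TPM, a fixed set of 28 known carriers and up to 4 called genes per list. Other members were named as class examples after their values were seen. Members, classes and lists were chosen with earlier results of these data known. Promoter windows are RefSeq's (GRCm38.p6), and 41 of 170 members were not matched or lie where sequence is not reported. A few members that enter the counts are not reported here by name.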

Additional observations from a re-analysis of the deposited data

Results flagged for a closer look

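The KO effect on the members below differed between 2 populations by the test of that difference in edgeR. Each value is the difference of the log2 changes, with its Benjamini-Hochberg adjusted p over all genes.

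Between CD4+ and CD8+ cells the effect was lower in CD4+ cells for the ion cotransporter Slc12a2 (-2.86, adjusted p = 2.29e-05), the betaine and GABA carriers Slc6a12 (-1.83, adjusted p = 0.00116) and Slc6a13 (-1.69, adjusted p = 0.00115), and Slc16a6 (-1.53, adjusted p = 0.0264). It was higher for the inositol carrier Slc5a3 (2.68, adjusted p = 0.000999), the imino acid carrier Slc6a20a (2.36, adjusted p = 0.000159), the amino acid exchanger Slc7a8 (2.17, adjusted p = 1.02e-05) and Slc49a4 (1.66, adjusted p = 0.00011).

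Between CD4-CD8- and CD8+ cells it was lower in CD4-CD8- cells for Slc12a2 (-2.18, adjusted p = 0.000659), Slc6a12 (-1.56, adjusted p = 0.00887), Slc35g1 (-1.37, adjusted p = 0.034) and the scaffold Slc9a3r2 (-1.35, adjusted p = 0.0137). It was higher for Slc6a20a (1.56, adjusted p = 0.00933), Slc5a3 (1.55, adjusted p = 0.0495), Slc25a29 (1.52, adjusted p = 0.00284) and the histidine and peptide carrier Slc15a3 (1.47, adjusted p = 0.000218).

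Between CD4+ and CD4-CD8- cells it was higher in CD4+ cells for Slc12a7 (2.17, adjusted p = 7.28e-05), Slc7a8 (1.64, adjusted p = 0.0021) and Slc28a2 (1.57, adjusted p = 0.00161). It was lower for the choline carrier Slc44a2 (-0.78, adjusted p = 0.00431), Slc35c2 (-0.70, adjusted p = 0.000706), Slc46a3 (-0.56, adjusted p = 0.0241) and the mitochondrial carrier Slc25a16 (-0.56, adjusted p = 0.0358). The last 2 were lost in 11 and 16 of 22 alternatives.

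Other differences were lost on TPM scales: those of Slc12a7 and Slc44a2 between CD4+ and CD4-CD8- cells on 3 scales, those of Slc6a12 and Slc6a20a between CD4-CD8- and CD8+ cells on 3, and those of Slc6a12 (against CD8+ cells) and Slc35c2 in CD4+ cells on log2(TPM + 0.1). Between CD4-CD8- and CD8+ cells Slc5a3 was lost in 15 of 22 alternatives and Slc35g1 in 8, and Slc9a3r2 without the 3 WT libraries numbered 3. Between CD4+ and CD8+ cells Slc16a6 was lost in 7, all of which left out libraries.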

How the results depend on the processing

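Counts of members called kept their size with upper quartile scaling and with DESeq2, while the TPM scale and the WT libraries moved them; the cause was not tested. On log2(TPM + 1), log2(TPM + 0.1) and log2(TPM + 1) from transcripts of 300 bases or more, the members called higher in KO numbered 27, 28 and 29 in CD4+ cells (63 on counts), 11, 9 and 11 in CD4-CD8- cells (54), with 3, 4 and 5 in CD8+ cells (10). The KO effect was higher in CD4+ than in CD8+ cells for 27, 27 and 27 (57), higher in CD4-CD8- than in CD8+ cells for 14, 12 and 15 (41), higher in CD4+ than in CD4-CD8- cells for 3, 3 and 3 (5) and lower there for 2, 0 and 2 (5). It was lower in CD4+ than in CD8+ cells for 11 and 9 on the first 2 scales (17). Members lower in WT CD4+ than in WT CD8+ cells numbered 40 and 39 on those 2 scales (61), and those lower in WT CD4-CD8- than in WT CD8+ cells 24, 22 and 25 (57). Members higher in WT CD4+ than in WT CD4-CD8- cells numbered 4, 1 and 4 (24), and those lower 13 on log2(TPM + 1) (20). Without the 3 WT libraries numbered 3, an alternative chosen after seeing the data, 34 were called higher in CD4-CD8- cells, 6 higher and 15 lower in CD8+ cells (30), 20 higher and 1 lower (9) in the difference of CD4-CD8- and CD8+ effects, 2 lower in that of CD4+ and CD4-CD8- effects, and 7 higher and 10 lower between WT CD4+ and WT CD4-CD8- cells. Fitting only the groups compared gave 15 lower in CD8+ cells, and no filter on low counts gave 3 lower in the difference of CD4+ and CD4-CD8- effects. Leaving out 1 library at a time gave 51 to 58 higher and 26 to 30 lower in CD4+ cells, 36 to 49 and 17 to 21 in CD4-CD8- cells, with 6 to 11 and 17 to 24 in CD8+ cells, where WT CD8+ library 3 gave the lowest values. It gave 27 to 40 higher for CD4-CD8- against CD8+ effects (27 without WT CD8+ library 1), 2 to 5 lower for CD4+ against CD4-CD8- effects, and 12 to 18 higher and 13 to 19 lower between WT CD4+ and WT CD4-CD8- cells (12 and 13 without WT CD4-CD8- library 1). Among single members, Slc25a12 in CD8+ cells turned to -0.0523 and Slc29a1 in CD4-CD8- cells to -0.35 on the long-transcript TPM, and Slc25a4 in CD4-CD8- cells to -0.23 on log2(TPM + 1) and on the long-transcript TPM. Of 136 called results on named members, 84 lost no call and 52 lost one under some alternative. The replicate numbers were not taken to pair libraries: deviations of KO and WT libraries with the same number correlated at -0.0466 to 0.15 within a population. Across populations of 1 genotype, same-numbered libraries correlated at 0.0544 to 0.201 (WT) and 0.0575 to 0.262 (KO), not all over 0.1, and others at -0.16 to 0.0703 and -0.176 to 0.0644. A replicate block gave 64 and 32, 58 and 23, and 11 and 31 members higher and lower in the 3 populations. For the differences of effects a block by number within genotype gave 58 and 21 (CD4+ against CD8+), 48 and 11 (CD4-CD8- against CD8+) and 6 and 7 (CD4+ against CD4-CD8-). For WT cells it gave 59 and 61, 49 and 59, and 29 and 23 in the same order. No count moved by over 1.5 times with either block. With a level of 10 CPM in a group, or of 5 CPM over all libraries, the members would number 153 or 155.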
